A study of Mus musculus with 10 samples.

Results

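The Bex genes and the related Tceal genes encode small proteins and lie close together on the X chromosome. Of the family, 6 genes were followed in lung squamous cell carcinoma (SCC): Bex1, Bex2, Bex3, Bex4, Tceal1 and Tceal8. They were found by the accession printed beside each array probe, with Ngfrap1 accepted as the older name of Bex3, and each gene had 1 probe, so that they made up 6 of the 41174 probes and 6 of the 19096 genes with a symbol. The group was picked because Bex2 and Bex4 had fallen steeply in these very arrays. The differences of the 6 genes between tumour and lung are therefore given as a description. No p-value is printed for them, and nothing is read from which of them passed the thresholds used for other genes.

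RNA came from whole lungs of 5 wild-type (WT) mice, genotype Lkb1f/f, and from whole lung tumours of 5 CCSPiCreLkb1f/f mice, each hybridised to 1 single-colour Agilent mouse array. All were of strain B6.129 and 13 months old, and the mice of both groups carried floxed Lkb1 (also called Stk11, a kinase gene that acts as a tumour suppressor). Only the tumour group carried Cre, expressed from the promoter of CCSP, a club cell secretory protein gene active in airway epithelium, so that Cre and the loss of Lkb1 cannot be told apart here. The labels do not say which sex or litter each sample came from, and p-values measure the spread between the samples as labelled.

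Bex proteins are small adaptor-like proteins described mostly in neurons, where Bex3 (also called NADE or Ngfrap1) binds the neurotrophin receptor p75NTR and has been tied to cell death signalling, and where Bex1 has also been described as a partner of that receptor. Bex2 has been described in complexes with the transcription cofactor Lmo2. Tceal proteins resemble the transcription elongation factor TFIIS, and Tceal1 was described as a nuclear protein that modulates transcription from viral and cellular promoters. In cancer, members of the family have been described both as silenced and as raised genes, depending on the tumour.

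The stretch of DNA before each gene's start is shown first. There, 4 of the 6 genes form pairs that share a long, nearly identical stretch. The signals within each pair differed between tumour and lung in unlike ways. Sequences are from RefSeq, assembly GRCm38.p6, and all 6 genes had 1 entry of 300 bases, 250 before and 50 from the start of the transcript. The 250 upstream bases of the pairs follow, 5′ to 3′ on the strand of the gene. Capitals mark TGACG (the letters of a cyclic-AMP response half-site), CACGTGA (which holds the E-box letters CACGTG) and GGGCGG (a GC box), searched on both strands. A motif that runs past the end of the 250 bases is not marked. Those of Bex1 are at chrX:136215514-136215763 (minus strand), of Bex4 at chrX:136138746-136138995 (plus strand), of Bex2 at chrX:136068237-136068486 (minus strand) and of Bex3 at chrX:136270003-136270252 (plus strand).
Bex1: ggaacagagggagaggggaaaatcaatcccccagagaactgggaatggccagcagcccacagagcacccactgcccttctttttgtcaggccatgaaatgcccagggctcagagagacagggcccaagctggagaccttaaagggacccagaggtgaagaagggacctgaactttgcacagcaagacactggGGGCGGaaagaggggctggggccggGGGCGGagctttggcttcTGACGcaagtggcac
Bex4: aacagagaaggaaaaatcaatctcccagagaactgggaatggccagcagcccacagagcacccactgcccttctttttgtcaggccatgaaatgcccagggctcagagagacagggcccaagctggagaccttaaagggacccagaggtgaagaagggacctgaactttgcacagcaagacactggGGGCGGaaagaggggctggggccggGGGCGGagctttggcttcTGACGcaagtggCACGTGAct
Bex2: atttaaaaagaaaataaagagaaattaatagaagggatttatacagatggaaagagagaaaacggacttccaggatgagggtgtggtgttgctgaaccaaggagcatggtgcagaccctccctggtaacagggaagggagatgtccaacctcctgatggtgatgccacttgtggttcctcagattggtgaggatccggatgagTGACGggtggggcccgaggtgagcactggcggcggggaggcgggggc
Bex3: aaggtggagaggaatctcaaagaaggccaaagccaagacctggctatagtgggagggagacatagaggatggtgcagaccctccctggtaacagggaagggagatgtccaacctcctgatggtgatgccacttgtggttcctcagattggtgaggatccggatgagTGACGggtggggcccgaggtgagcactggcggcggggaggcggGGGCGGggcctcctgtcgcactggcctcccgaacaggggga

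Over the 300-base windows, Bex1 and Bex4 shared an unbroken run of 271 bases, and 287 of 290 aligned bases were identical (99.0%). Bex2 and Bex3 shared a run of 162 bases, with 197 of 199 aligned bases identical (99.0%). The other 13 pairs of the 6 genes shared runs of 8 to 14 bases. Among 27025 genes with a window, the only gene to share a run of 40 bases with Bex1 was Bex4, and the only one to share such a run with Bex2 was Bex3, while Tceal1 and Tceal8 shared such a run with none.

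A second feature was common to most of the family. In 5 of the 6 windows, all but that of Bex2, TGACG was followed after 7 to 9 bases by CACGTGA. The Bex2 window ended just before the place that matches the pair in Bex3, so whether Bex2 has the pair there was not tested. The stretches that hold this pair of motifs follow, with both motifs in capitals. They are at chrX:136215505-136215532 for Bex1, chrX:136138971-136138998 for Bex4, chrX:136270262-136270291 for Bex3, chrX:136707963-136707992 for Tceal1 and chrX:136172223-136172250 for Tceal8, with Bex1 and Tceal8 on the minus strand and the others on the plus strand.
Bex1: cttcTGACGcaagtggCACGTGActagc
Bex4: cttcTGACGcaagtggCACGTGActagc
Bex3: gcagTGACGcagggccctCACGTGAcccgg
Tceal1: gctgTGACGcgctcccctCACGTGAccagg
Tceal8: ttgaTGACGcgatcctCACGTGAccagc

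The pair of motifs was read off these windows, so that its presence in them is no test. Of all 27025 genes, 21 (0.0777%) held it in a window, and 8 of the 21 were Bex or Tceal genes: Tceal3, Tceal5 and Tceal6 besides the 5 shown. It was held by 8 of the 12 Bex and Tceal genes with a window. CACGTGA alone occurred in 3.77% of the 32851 windows, TGACG alone in 20.8% and GGGCGG in 35.7%, and the motifs of the pair do not overlap each other. The pair lay next to genes that were lower on every SCC array (Bex4, Tceal1) and to genes that were not (Bex1, Bex3, Tceal8). Whether it bears on these differences was not tested.

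The labels were checked against the arrays. Sftpc, the surfactant gene of alveolar type 2 cells, was at 18.80 (log2 signal), the top of the quantile-normalized scale, on every WT array, and between 18.45 and 18.80 on the SCC arrays. At that ceiling its signal shows only that the gene was among the brightest on all 10 arrays. Krt5, which marks squamous and basal cells, was at 5.29 to 6.63 in WT and 15.60 to 17.70 in SCC, and Trp63, a regulator of those cells, at 5.50 ± 0.38 and 12.95 ± 0.51 (SD, n = 5 each). Lkb1 itself had no probe paired with it and was not analysed here. SCC replicate 2 stood nearer to WT lung than the other tumours did, with r = 0.94 to 0.946 to the WT arrays across tested probes against 0.85 to 0.905, and SCC replicate 5 had 90.2% of probes well above background against 71% to 74.4%.

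All 6 genes were well above background on all 10 arrays and passed the filter on dim probes. Signals are log2 of the quantile-normalized processed intensity, on which a difference of 1 is a 2-fold change, and differences are SCC minus WT. Of the 6 genes, Bex2, Bex4 and Tceal1 met the criteria for a call (limma adjusted p below 0.05 and at least 2-fold), all lower in SCC, where 13% of the 30374 tested probes were called lower and 22.9% were called in either direction. The groups did not overlap for 4 of the 6 genes, against 37.4% of tested probes. Since the genes were picked on this contrast, nothing is read from these counts. The median difference of all tested probes was -0.09. In bulk RNA, fewer cells of a type and less RNA per cell cannot be told apart.

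Bex4, the gene with the largest fall of the 6, was at 13.00, 13.22, 12.98, 13.24 and 13.63 on WT replicates 1 to 5, and at 5.57, 7.31, 5.58, 5.88 and 5.20 on SCC replicates 1 to 5. Every tumour was far below every lung, and the WT arrays lay close together. The means were 13.21 ± 0.26 in WT and 5.91 ± 0.82 in SCC (SD, n = 5 each), a difference of -7.31 or 158-fold lower signal, the 2nd lowest of all tested probes. In processed intensity before normalization, Bex4 lay between 7.52e+03 and 1.28e+04 in WT and between 33.8 and 178 in SCC, where the lowest value was that of SCC replicate 3. On the SCC arrays the gene was 1.26 to 3.35 log2 units above the dimmest probe still called well above background. With the normexp background correction in place of the processed intensity, the difference was -5.84.

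Bex2, a partner of the Lmo2 complex, was at 13.16, 13.21, 13.03, 13.59 and 13.49 on WT replicates 1 to 5, and at 7.65, 10.80, 5.54, 7.20 and 7.54 on SCC replicates 1 to 5. The tumours were again all below the lungs, but they were spread widely, with SCC replicate 2 highest and SCC replicate 3 lowest. The means were 13.30 ± 0.23 and 7.75 ± 1.91 (SD, n = 5 each), a difference of -5.55 or 46.9-fold lower signal, the 9th lowest of all tested probes. Without SCC replicate 2 the difference was -6.31, and with normexp it was -4.63. The SD of Bex2 across tumours was at or above that of 98.9% of tested probes, whose median was 0.38, whereas in WT it was at or above that of 72.4%.

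Tceal1, which modulates transcription, was at 10.34, 10.10, 10.17, 10.16 and 10.003 on WT replicates 1 to 5, and at 8.06, 9.61, 8.04, 8.25 and 7.41 on SCC replicates 1 to 5. All tumours lay below the lowest lung, by a small margin on SCC replicate 2. The means were 10.15 ± 0.12 and 8.27 ± 0.81 (SD, n = 5 each), a difference of -1.88 or 3.68-fold lower signal.

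Bex1, whose upstream sequence is nearly that of Bex4, behaved otherwise. It was at 9.20, 9.35, 9.25, 9.24 and 9.98 on WT replicates 1 to 5, and at 11.71, 7.52, 12.19, 9.27 and 11.75 on SCC replicates 1 to 5. Of the 5 tumours, 3 were above the highest lung, 1 was within the WT range and 1, SCC replicate 2, was below the lowest lung. The means were 9.40 ± 0.33 and 10.49 ± 2.02 (SD, n = 5 each), a difference of 1.08, which was smaller than the spread among the tumours. Without SCC replicate 2 the difference was 1.82, and without SCC replicate 3 it was 0.65. The SD across tumours was at or above that of 99.1% of tested probes.

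Bex3, the p75NTR-binding gene, shares part of its upstream sequence with Bex2. It was at 12.59, 12.44, 12.54, 12.66 and 12.47 on WT replicates 1 to 5, and at 12.90, 13.33, 12.87, 13.03 and 13.01 on SCC replicates 1 to 5. Every tumour was slightly above every lung. The means were 12.54 ± 0.091 and 13.03 ± 0.18 (SD, n = 5 each), a difference of 0.49 or 1.4-fold, below the 2-fold requirement.

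Tceal8, another Tceal gene, was at 12.71, 12.50, 12.63, 12.48 and 12.44 on WT replicates 1 to 5, and at 12.22, 13.06, 12.19, 12.11 and 12.40 on SCC replicates 1 to 5. The groups overlapped, with 4 tumours just below the lungs and SCC replicate 2 above them. The means were 12.55 ± 0.11 and 12.40 ± 0.38 (SD, n = 5 each), a difference of -0.16. The plot of the 6 genes by array shows these patterns together.

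**Figure D1:**
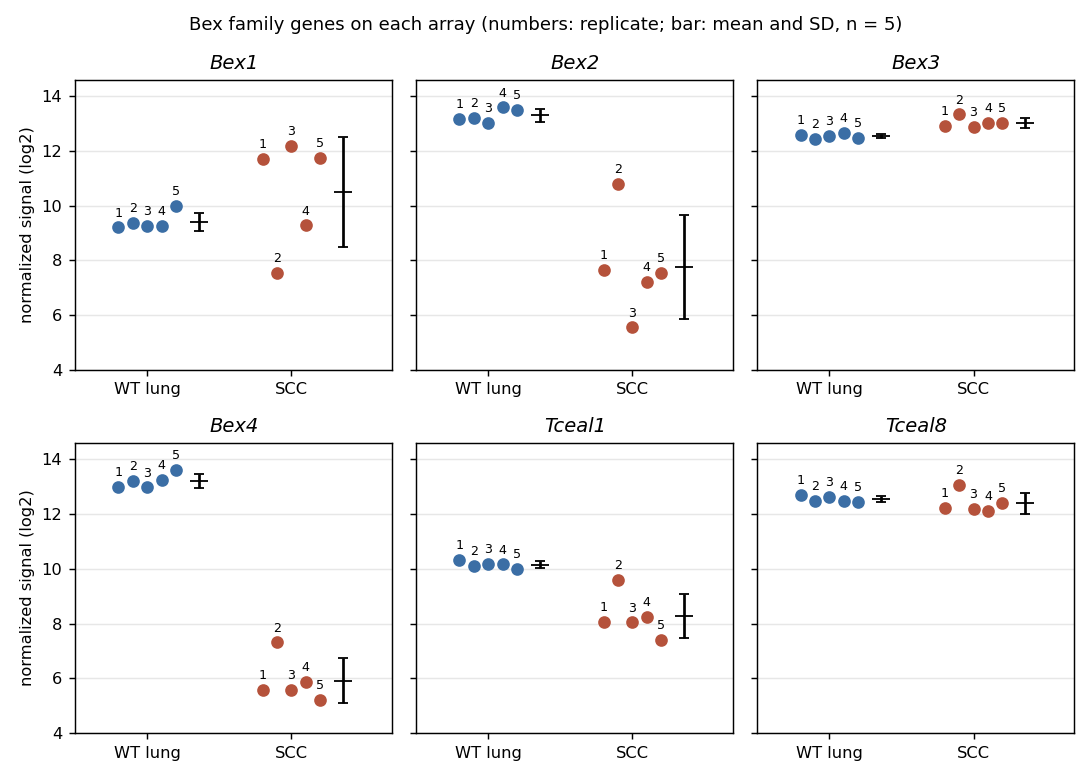
Normalized signal (log2, vertical axis) of the 6 Bex and Tceal genes on each of 5 WT lung (blue) and 5 SCC (red) arrays, with replicate numbers above the points and black marks for the mean and SD. Bex2, Bex4 and Tceal1 were lower on every SCC array, Bex3 was slightly higher on every SCC array (by 0.49 on average), and Bex1 and Tceal8 overlapped between the groups.

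The pairs that share a nearly identical upstream stretch held genes with different changes. Bex4 differed by -7.31 and Bex1 by 1.08, and Bex2 differed by -5.55 and Bex3 by 0.49. The tumour with the highest Bex4, SCC replicate 2 at 7.31, had the lowest Bex1, at 7.52, and SCC replicate 4 came next in both orders. The probe sequences were not at hand, so whether the probes of these similar genes pick up each other's transcripts was not tested. RefSeq lists Bex4 as an older symbol of Bex1, and Bex1 as an older symbol of Bex2, so that names in other sources may refer to another gene of the set. Here each gene is tied to the accession on the array: NM_009052 for Bex1, NM_009749 for Bex2, NM_009750 for Bex3, NM_212457 for Bex4, NM_146236 for Tceal1 and NM_025703 for Tceal8.

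Over the 10 arrays, Bex2 and Bex4 correlated at Pearson r = 0.95, Bex2 and Tceal1 at 0.95 and Bex4 and Tceal1 at 0.93. After subtracting each group's mean, these pairs were at 0.81, 0.75 and 0.90. Bex3 and Tceal8 were at 0.84 and 0.83 with Bex2 on this scale, and Bex1 was at -0.79 with Bex2 and -0.81 with Bex4. Without that subtraction, Bex3 and Tceal8 were at -0.65 and 0.59 with Bex2. Bex1 was then at -0.65 with Bex2 and -0.49 with Bex4. SCC replicate 2 was the highest tumour for Bex2, Bex3, Bex4, Tceal1 and Tceal8 and the lowest for Bex1. All points share the same 10 arrays, and no p is given.

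The arrays lay on 3 slides, and only slide 2 held both groups, with WT replicate 5 and SCC replicates 1 to 3. On that slide alone the differences were -5.49 for Bex2, -7.47 for Bex4, -1.43 for Tceal1, 0.57 for Bex3, 0.49 for Bex1 and 0.05 for Tceal8. The falls of Bex2, Bex4 and Tceal1 were thus present within 1 slide, and the sign of Tceal8 turned there.

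Because the family is X-linked, sex-linked transcripts were set beside it. Xist, the RNA that silences an X chromosome in females, was at 4.33, 2.27 and 2.58 on WT replicates 2 and 3 and on SCC replicate 2, and at 13.75 or above on the other 7 arrays, while on those 3 arrays Ddx3y and Eif2s3y, both Y-linked, were at 10.91 to 11.75. SCC replicate 5 had Xist at 13.75 together with Ddx3y at 8.34 and Eif2s3y at 8.64. Among WT lungs, Bex2 was at 13.03 to 13.21 on the 2 arrays low in Xist and at 13.16 to 13.59 on the other 3, and Bex4 at 12.98 to 13.22 and 13.00 to 13.63. These ranges overlapped for all 6 genes in WT. Among the tumours, the array low in Xist was SCC replicate 2, the one with the highest Bex2 and Bex4, so that sex and this tumour's other differences cannot be told apart.

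The rest of the family gave a mixed picture. Of 6 further genes (Bex6, Tceal3, Tceal5, Tceal6, Tceal7 and Tceal9), 3 had a probe, and 2 of those were called, 1 higher (Tceal7, which entered the test only through its SCC arrays) and 1 lower, where 24.9% of 15587 genes were called. The median difference of the 3 was 0.54, against -0.038 over all genes.

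Tceal7, which has been described as a silenced gene in some carcinomas, was at 2.31, 2.31, 2.32, 2.26 and 2.30 on WT replicates 1 to 5, and at 7.59, 2.28, 8.03, 5.09 and 7.11 on SCC replicates 1 to 5. The gene was not well above background on any WT array and was so on 4 SCC arrays, all but replicate 2, which lay within the WT range. On this scale, signal in SCC was at least 3.95-fold higher, the bound being set by the dimmest signal measured well above background. The measured difference of 3.72 rests on WT values below background, and it was 4.66 without SCC replicate 2 and 1.07 with normexp. With slide as a fixed block, Tceal7 was no longer called.

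Tceal7 and Bex1, which lie near each other on the chromosome, were high on the same tumours: SCC replicates 1, 3 and 5 were the highest for both. Tceal3 was at 8.53 ± 0.16 in WT and 7.48 ± 0.51 in SCC (SD, n = 5 each), lower in SCC by a log2 difference of -1.05 (SE 0.23, limma adjusted p 0.00397). It sat just past the 2-fold requirement, and its call was lost under 75th-percentile scaling (-0.91), normexp (-0.72) and the slide block (-0.91), and without SCC replicate 3 (-0.91), 4 (-0.998) or 5 (-0.97). A dimmer Tceal3 probe differed by -1.57 (limma adjusted p 0.0293). Tceal9 was at 14.34 to 14.56 in WT and 14.75 to 15.26 in SCC, a difference of 0.54 (SE 0.11, limma adjusted p 0.00225) that did not reach 2-fold.

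**Figure D2:**
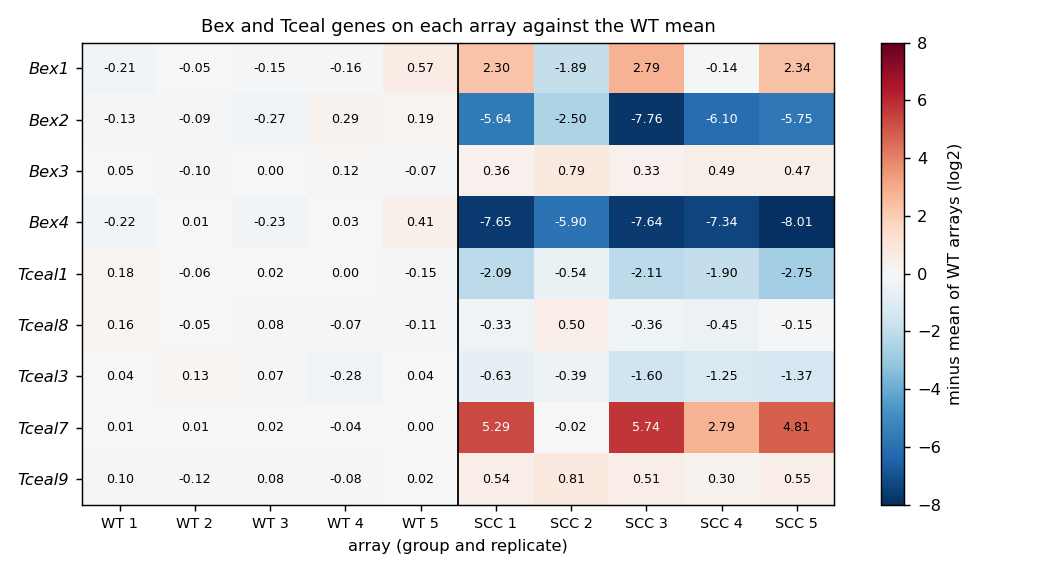
Signal of the 6 described genes and the 3 further family genes with a probe (rows) on each array (columns), as the log2 difference from the mean of the 5 WT arrays, with red above and blue below it. Bex1 and Tceal7 were high on SCC replicates 1, 3 and 5, while Bex2 and Bex4 fell on all 5 tumours and least on SCC replicate 2; Tceal7 was not well above background on any WT array.

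Genes beside the family on the X chromosome were taken by position alone, 15 protein-coding genes on either side and those in between, in the order of the RefSeq table (GRCm38.p6). Of these 34 genes, 26 had a probe and 12 were tested, since many were not well above background. Of the 12, 8 were called, all lower in SCC, where 13.4% of all genes were called lower. Of the 8, Arxes1 entered the test only through its WT arrays, where it was high. Their median difference was -1.40. The 8 called genes lay on both sides of the family.

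Arxes2, described in fat cell differentiation together with Arxes1, differed by -2.74 (limma adjusted p 0.00108) and by -1.78 with normexp. Arxes1 was at 6.86 to 7.19 in WT and at 2.17 to 5.18 in SCC, where it was well above background on 2 of the 5 arrays, so that no exact size is given for its fall. Arxes1 lies next to Bex2, and Arxes2 beside Arxes1. Gprasp2 and Gprasp1, which sort G protein-coupled receptors to the lysosome, fell by 2.51 and 1.73, and their relatives Bhlhb9 and Armcx5 by 1.08 and 1.07. With normexp, Gprasp2 differed by -1.36, and Bhlhb9 and Armcx5 (both -0.83) were no longer called. Zcchc18, on the far side beyond Tceal1, fell by 1.78 (SE 0.17, limma adjusted p 3.43e-05).

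Morf4l2, the gene next to Tceal1, had a difference of 0.48 (limma adjusted p 0.0011), below 2-fold, and Fam199x one of -0.12. The largest falls in the region were those of Bex2 and Bex4 and lay side by side in the order of the tested genes, directly followed by Tceal8 and Bex1, for which the groups overlapped. Armcx5 was no longer called without SCC replicate 5 (-0.93). With slide as a fixed block, 2 of the 12 neighbours, Gprasp1 and Zcchc18, were called.

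**Figure D3:**
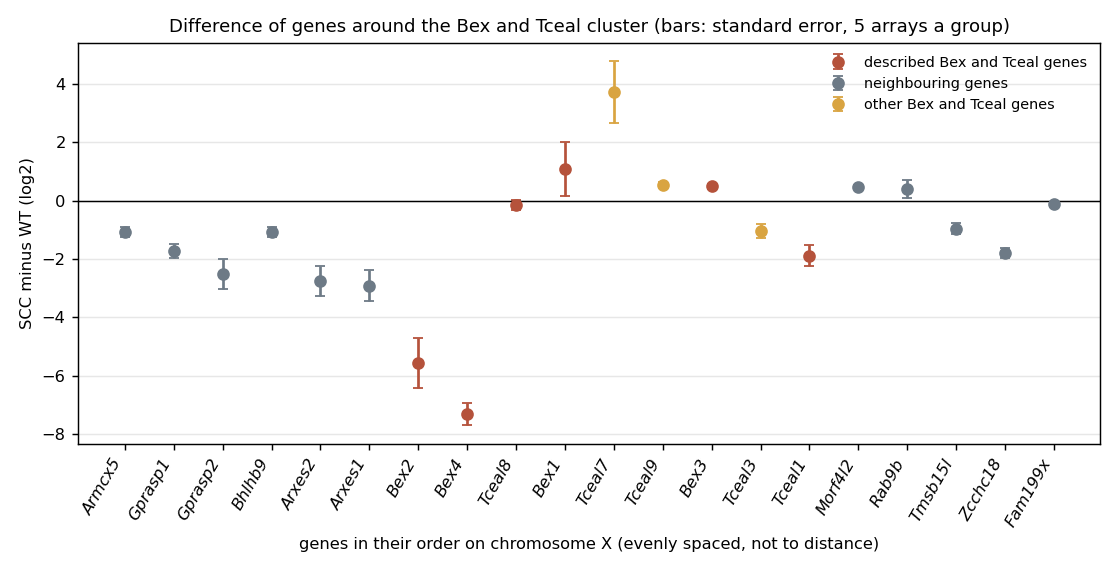
Difference between SCC and WT (log2, vertical axis) of 20 tested genes around the Bex and Tceal cluster, in their order on the X chromosome but evenly spaced, with bars for the standard error over 5 arrays a group. The points fall to -5.55 and -7.31 at Bex2 and Bex4, which follow Arxes2 and Arxes1, and rise to 1.08 at Bex1; the value of Tceal7 depends on WT signals below background, and that of Arxes1 on SCC signals of which most were.

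The pathway in which Bex proteins are best known was examined with 18 genes: p75NTR itself (Ngfr), its ligands, the Trk receptors, adaptors of p75NTR, and proteins described as partners of Bex proteins. Of these, 16 were tested and 5 were called, 2 higher and 3 lower (31.2%, where 24.9% of all genes were called), and 1 of the 5 entered the test only through its SCC arrays. Their median difference was -0.25.

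Ngfr, the receptor that Bex3 binds and a marker of basal epithelial cells, was at 7.19, 7.41, 6.93, 7.50 and 7.23 on WT replicates 1 to 5, and at 9.92, 10.31, 9.67, 9.24 and 9.83 on SCC replicates 1 to 5. It was higher in every tumour, by 2.54 (SE 0.19, limma adjusted p 1.11e-05). A dimmer Ngfr probe differed by 0.81 and did not pass (limma adjusted p 0.0993). On SCC replicate 4 that probe was at 5.42, within its WT range of 5.01 to 5.45. By its brighter probe the receptor was higher on all tumour arrays, as was Bex3, by less than 2-fold.

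Of the ligands, Bdnf fell by 2.41 (SE 0.18, limma adjusted p 1.15e-05). Ntf3 differed by -0.97 (limma adjusted p 0.0631). Among the Trk receptors, Ntrk3 fell by 1.61 (limma adjusted p 0.00989). This call was lost with normexp and with slide as a fixed block.

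Lmo2, the cofactor described with Bex2, fell by 1.40 (SE 0.16, limma adjusted p 0.000111), and it is also expressed in endothelial cells. Maged1, an adaptor of p75NTR, was at 13.72 ± 0.13 in WT and 13.80 ± 0.63 in SCC (SD, n = 5 each), apart by 0.079 (SE 0.27, limma adjusted p 0.822). On SCC replicate 2 it was at 14.91 and on the other tumours between 13.36 and 13.67, and without that array the difference was -0.20.

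**Figure D4:**
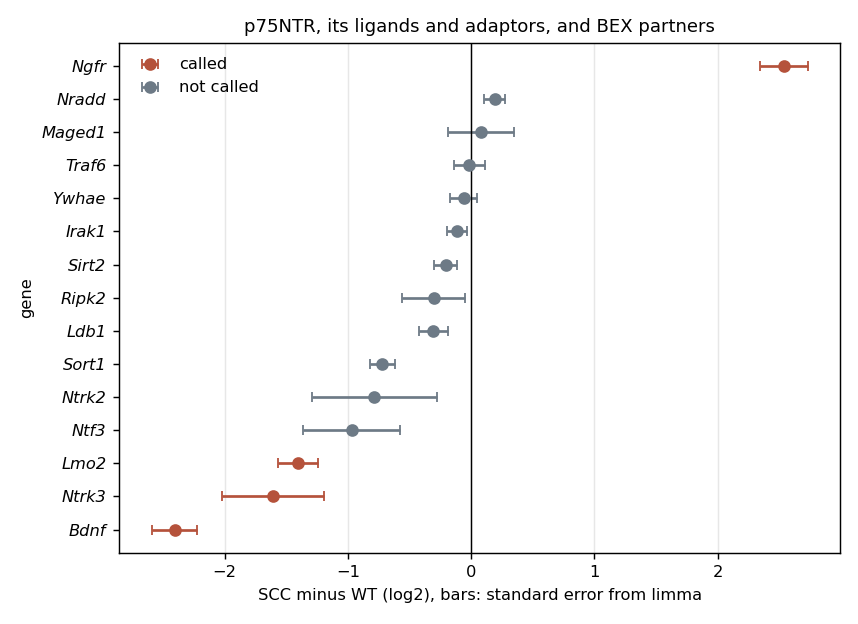
Difference between SCC and WT (log2, horizontal axis) of 15 of the tested genes of the p75NTR pathway and Bex partners, with bars for limma's standard error and red for genes that were called. Ngfr (2.54) was higher, Bdnf (-2.41), Ntrk3 (-1.61) and Lmo2 (-1.40) were lower, and the other 11 genes shown were not called.

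For each gene, the 3 genes outside the family with the highest Pearson r over the 10 arrays were looked up as a description of its pattern. Those most like Bex2 were Vegfd, a lymphatic growth factor (r = 0.998), Hs3st1, a heparan sulfate sulfotransferase (0.997), and Fmo2, a lung flavin-containing monooxygenase (0.997). They differed by -3.07, -1.62 and -3.60, and after subtracting the group means they were at r = 0.99, 0.98 and 0.98 with Bex2. Those most like Bex4 were Sbds (0.997), Prickle2 (0.996) and Gas6 (0.996), at 0.86, 0.88 and 0.80 after subtracting the group means.

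For Tceal1 they were Taf9b (0.998), Lmbrd1 (0.997) and Tsr2 (0.996), which differed by -1.21, -0.85 and -1.18. The genes most like Bex1 were C130026I21Rik (0.975), the chemokine gene Ccl24 (0.969) and the homeobox gene Msx1 (0.960), none of which moved by 1 log2 unit between the groups. Bex3 was followed most closely by Lcn2 (0.978), Arsb (0.976) and Psmc3 (0.975), and Tceal8 by Rida (0.993), Orc4 (0.984) and Borcs7 (0.983).

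Whole lung and whole tumour hold different cells, and marker lists of 9 cell types were set beside the falls of Bex2, Bex4 and Tceal1. Of all tested genes, 13.4% were called lower and 11.6% higher, to be read beside each count that follows. This balance depended on the scaling, with 3014 probes called higher and 3940 lower here, but 3504 higher and 3080 lower under 75th-percentile scaling. Endothelial markers were called lower for 11 of 12 tested genes, with the mean of the list at 14.06 to 14.23 in WT and 11.66 to 12.65 in SCC (log2 signal). Pecam1 fell by 1.60 and Cdh5 by 2.37.

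Cardiac muscle markers were called lower for 8 of 9 genes, at 9.77 to 13.43 in WT and 7.94 to 9.74 in SCC, with Myh6 down by 4.68 and Actc1 by 1.77. Alveolar type 1 markers were called lower for 6 of 7 (14.59 to 14.77 against 12.57 to 13.17), including Ager, which fell by 2.21, and Hopx, which fell by 1.31. That mean leaves out Aqp5, which had no value on 1 array and differed by 0.64. Fibroblast markers were called lower for 6 of 9 (13.22 to 13.45 against 11.41 to 12.71), where Pdgfra fell by 2.10 and Col1a1 differed by 0.66.

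Smaller shares were called in smooth muscle and pericyte markers, with 3 of 9 (Cnn1, Des and Myh11) lower (11.81 to 12.16 against 11.13 to 11.58), where Myh11 fell by 1.18 and Acta2 differed by 0.40. In alveolar type 2 markers, 1 of 8, Etv5, was called lower, a share near the 13.4% of all genes (14.35 to 14.49 against 13.40 to 14.14), with Sftpb at a difference of -0.86, while Sftpc, at the ceiling of the scale in WT, gives no usable difference. In Schwann cell markers, 2 of 7 were called lower (8.08 to 8.33 against 7.74 to 8.08). One of them was Pmp22, which differed by -2.66, while Sox10 differed by -0.11.

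Neurons and neuroendocrine cells are where Bex genes are best known. Of 18 markers, 12 were tested, 6 were called lower (1 of them, Prph, entering the test only through its WT arrays) and 1 higher, and 6 of the 18 were not well above background on any WT array. The list mean was at 5.57 to 5.73 in WT and 4.58 to 5.48 in SCC. Uchl1 fell by 1.66 (SE 0.27, limma adjusted p 0.000773), Chga differed by 0.067, and the gene called higher was Tubb3 (1.79). Squamous markers were called higher for 9 of 9 tested genes, of which Dsg3, Krt6a, Pkp1 and Serpinb5 were not well above background on any WT array and entered the test only through their SCC arrays. The mean of the list was at 5.03 to 5.35 in WT and at 12.06 on SCC replicate 2 and 15.10 to 15.45 on the other tumours. The tumour with the lowest squamous mean was also the one with the highest Bex2, Bex4 and Tceal1 and the lowest Bex1. The part of these cell types in the values of the Bex and Tceal genes was not tested.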

How the data were processed

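The arrays were scanned and read with Agilent Feature Extraction (per the file headers). The authors deposited a processed intensity per spot, linear and background-subtracted, with outlier and background flags. A log2 matrix the authors deposited as well was used as an alternative and matched the quantile-normalized processed signal at r of at least 0.9999. Their methods state quantile normalization, log2 and a one-way ANOVA. Here outlier-flagged spots were dropped, spots of a probe averaged as log2, and 41174 probes quantile-normalized. A probe was tested if well above background on at least 4 of 5 arrays of a group, which left 30374. limma 3.58.1 (R 4.3.3, two-sided, no covariates) was fitted on all 10 arrays with Benjamini-Hochberg adjustment. Calls needed a 2-fold or larger difference and an adjusted p below 0.05. Of several probes of a gene, the brightest was taken. RefSeq symbols (GRCm38.p6) matched 68.5% of probes. Normexp used the median spot intensity with an offset of 50. The fit was tested on simulated data. The genes named are the 6 Bex and Tceal genes, the further family genes, at most 8 called genes of each other list, Ngfr and Maged1, the 3 most similar genes, 2 genes per marker list and the sex-linked genes. Pmp22, Cnn1, Des, Etv5, Tubb3, Aqp5, Dsg3, Krt6a, Pkp1, Serpinb5 and Prph were named after their values were seen. The values of some listed genes are not reported here and are left out of the plots, but the counts include them. Members and lists were chosen with earlier results of these data known. Settings tried in the alternatives were the scaling, background correction, deposited values, dim-probe filter, slide and replicate blocks, the ANOVA, and arrays left out. With 5 arrays a group, array number limits the precision.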

Additional observations from a re-analysis of the deposited data

Results flagged for a closer look

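Within a group of 5 arrays, 15 of 112 groups of values had 1 array set apart by more than 0.71 of the group's whole range, where chance gives about 1 in 20. For Bex1 the gap was 0.803 of the range, with WT replicate 5 at 9.98 and the other lungs at 9.20 to 9.35. For Tceal3 it was 0.776, with WT replicate 4 low at 8.25, and the mean of the further family genes was low on the same array (0.748). Arxes2 was high on WT replicate 4 (0.904), at 10.01 against 9.43 to 9.49, and Gprasp2 was low on SCC replicate 5 (0.827), at 3.89 against 6.05 to 6.50.

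SCC replicate 2 accounted for 8 of the 15. It was high for Bhlhb9 (0.795), Bdnf (0.905), Maged1 (0.799), Pecam1 (0.898) and the mean of the p75NTR list (0.76), and low for Krt5 (0.879), Xist (0.962) and the mean of the squamous markers (0.896). Col1a1 (0.811) and Hopx (0.867) were high on SCC replicate 4.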

How the results depend on the processing

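No difference of the 6 genes changed sign under an alternative except that of Tceal8, which was 0.05 with slide as a fixed block and within slide 2. The difference of Bex4 moved by more than the spread between arrays only with normexp (-5.84). Leaving out 1 array at a time gave 0.65 to 1.82 for Bex1, -6.31 to -5.00 for Bex2, 0.41 to 0.53 for Bex3, -7.66 to -7.13 for Bex4, -2.21 to -1.66 for Tceal1 and -0.32 to -0.084 for Tceal8. The count of called probes went from 6954 to 4041 with normexp, 2989 with slide as a fixed block and 14878 with adjusted p alone, and to 6385 to 8135 with 1 array left out. Of the further family genes, 2 were called, 1 with 75th-percentile scaling, 1 with normexp, 1 with the strict dim-probe filter, 0 with slide as a fixed block and 1 to 2 with 1 array left out. Called neighbours went from 8 to 6 with normexp and 2 with slide as a fixed block, and stayed at 7 to 9 with 1 array left out. Called genes of the p75NTR list went from 5 to 3 with normexp and 3 with slide as a fixed block, and stayed at 5 to 7 with 1 array left out. Maged1, at 0.079, ranged from -0.20 (without SCC replicate 2) to 0.19 with 1 array left out, and was -0.25 without SCC replicates 2 and 5. The causes of these shifts were not tested.

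Same-numbered arrays did not deviate together (correlations of -0.103 to 0.00867), so the samples were not treated as paired. These correlations cannot show whether samples were matched, for example by litter. With the replicate number as a block, 6571 probes were called, and the counts of 2 further family genes, 8 neighbours and 5 p75NTR genes were as without it. Each of the 6 genes had a single probe, so the alternative of taking every probe on its own could not be run. Only slide 2 held both groups, with 1 WT array, so the slide block rests on that array. Dim signals limit Bex4 in SCC and Tceal7 in WT, which lay near or below the dimmest probes measured well above background. For Bex2 they do so mainly on SCC replicate 3, where it was 1.22 log2 units above the dimmest such probe. On the other SCC arrays Bex2 was 2.95 to 6.84 log2 units above it.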
